A study of Mus musculus with 64 samples.

Results

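Histone genes encode the small basic proteins around which DNA is wound. The genes described here are the clustered, mostly replication-dependent histone genes of the mouse together with the linker histone genes. The rule takes all genes named H1f, H2ac, H2bc, H3c or H4c followed by a number. It uses the symbol alone, but this set was chosen with earlier results of these data known. Of the 19503 genes measured, 57 met this rule, each with 1 probeset on the array: 8 H1, 13 H2A, 15 H2B, 10 H3 and 11 H4 genes. RefSeq lists 68 mouse genes with such symbols, and the other 11 (among them H1f0 and H1f4) were not analysed here. By chromosome, 46 of the 57 lie on chromosome 13, 8 on chromosome 3, 2 on chromosome 6 and 1 on chromosome 15.

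RNA came from the proximal colon of male mice of 32 inbred strains, namely 30 BXD recombinant inbred strains and their parents C57BL/6J and DBA/2J. From 8 weeks of age each strain was kept on a chow diet (CD, with 18% of energy from fat, 58% from carbohydrate and 24% from protein, the last given as 4% in another label field) or on a high-fat diet (HFD, 60.3%, 21.4% and 18.3%). Tissue was taken at 29 weeks, after a daytime fast and 4 h of refeeding. RNA of about 5 mice was pooled for each Clariom S array, a microarray that reads 1 value per probeset, so that 32 CD and 32 HFD arrays hold 1 array per strain and diet. A p-value here therefore weighs a diet difference against the spread between strains, and no array repeats a strain on the same diet. All values are log2 intensities as deposited, and a change is HFD minus CD on that scale. In bulk tissue, fewer cells with a transcript and less of the transcript per cell cannot be told apart.

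Array medians over all genes lay between 6.6 and 6.75 under CD and between 6.65 and 6.76 under HFD. The mean of 10 colon epithelium markers was 16.05 to 17.19 under CD and 16.08 to 16.91 under HFD, so the labelled tissue carried its markers at high signal on every array. The mean of 12 small intestine markers ranged from 6.9 to 13.16 under CD and from 7.26 to 15.31 under HFD, with the Paneth cell gene Defa24 far higher on the arrays of BXD48a (CD) and of BXD39, BXD49 and BXD69 (HFD) than elsewhere. The arrays of BXD49 (HFD) and BXD81 (CD) stand apart from the others of their diet, and the pairing of the CD with the HFD array is in doubt for C57BL/6J, DBA/2J, BXD87, BXD89 and BXD90. Counts are given below with and without each of these sets.

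Replication-dependent histone genes are read when a cell copies its DNA in S phase, which supplies the H2A, H2B, H3 and H4 proteins of the nucleosome core and the H1 proteins that bind the linker DNA between nucleosomes. Most of their messages have no poly(A) tail and end in a conserved stem-loop bound by the protein SLBP. In the colon, S phase cells sit in the lower part of the crypts, where epithelium is renewed throughout life. Replacement variants such as H3.3, by contrast, are made throughout the cell cycle from ordinary polyadenylated messages.

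The H2A and H2B genes often lie head to head with a shared promoter, and 5 promoters are shown here, 4 of members with large diet changes and 1 of a member with almost none. Each is the 150 bases before the annotated start of the gene (RefSeq, build GRCm38.p6), given 5′ to 3′ on the strand of the gene, with capitals for CCAAT (or ATTGG on the other strand), for the octamer ATTTGCAT (or ATGCAAAT) and for TATAAA (or TTTATA). They are the promoters of H2bc18 at chr3:96269550-96269699 (plus strand), H2bc12 at chr13:22035671-22035820 (plus strand), H3c10 at chr13:21717478-21717627 (plus strand), H1f1 at chr13:23763518-23763667 (plus strand) and H1f2 at chr13:23738657-23738806 (plus strand), the last a linker histone gene that did not pass the diet test.
H2bc18: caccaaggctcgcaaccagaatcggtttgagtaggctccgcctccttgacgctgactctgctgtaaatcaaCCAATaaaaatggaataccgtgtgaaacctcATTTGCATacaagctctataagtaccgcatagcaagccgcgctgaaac
H2bc12: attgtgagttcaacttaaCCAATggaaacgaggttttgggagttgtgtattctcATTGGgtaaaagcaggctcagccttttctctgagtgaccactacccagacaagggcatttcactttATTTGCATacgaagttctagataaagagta
H3c10: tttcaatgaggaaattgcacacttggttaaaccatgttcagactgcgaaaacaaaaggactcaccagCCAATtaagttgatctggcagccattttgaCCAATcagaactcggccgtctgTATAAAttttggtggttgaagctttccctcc
H1f1: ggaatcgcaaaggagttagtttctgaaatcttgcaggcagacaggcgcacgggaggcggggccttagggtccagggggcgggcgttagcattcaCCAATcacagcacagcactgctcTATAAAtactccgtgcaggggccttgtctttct
H1f2: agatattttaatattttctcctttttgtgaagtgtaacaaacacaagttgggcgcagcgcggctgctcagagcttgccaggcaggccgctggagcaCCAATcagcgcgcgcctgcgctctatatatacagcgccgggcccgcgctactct
The octamer starts 48 bases before the annotated start in H2bc18 and 30 bases before it in H2bc12, while H3c10 and H1f1 carry TATAAA at 31 and 33 bases before it. Of the marked motifs H1f2 held only the CCAAT, 54 bases before its start. Letters close to TATAAA, such as the tatatata in its sequence, were not searched. These 5 promoters do not stand for all members. H4c6, which rose by 0.73 and is not printed, held none of the motifs in its 150 bases, with TATAAA only farther upstream. H2ac8, which rose by 0.68 and is not printed either, held all of them.

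Over the 250 bases before the start, read on both strands, 52 of the 57 members had a RefSeq promoter to search. H3c7, H2bc4, H3c1, H4c14 and H2bc21 had no entry. CCAAT or its reverse was found in 41 of 52 members (78.8%), beside 33.8% of 32851 RefSeq promoters, and in all 13 H2A and 13 H2B members searched but in 3 of 10 H4 members. TATAAA was found in 24 of 52 (46.2%, beside 12.4%), and the octamer in 12 of 52 (23.1%, beside 1.6%). All 12 members with the octamer were H2A or H2B genes, 6 of each. These are counts of members and not of sites. Where genes lie head to head, the bases between their starts were searched for both, so a single site can count for each. Both genes of the pairs H2ac12 with H2bc12, H2ac8 with H2bc8 and H2ac1 with H2bc1 are among the 12. These are matches of letters and say nothing of whether a factor binds there. Among the members that rose under HFD, 9 of 34 searched held the octamer (26.5%), and among those that did not pass, 3 of 18 (16.7%). For CCAAT the shares were 82.4% and 72.2%, and TATAAA was in 17 of 34 and 7 of 18, so that each motif was found in both sets.

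Under HFD 35 of the 57 histone genes rose and 0 fell, in a limma fit of all 19503 genes at an adjusted p of 0.05, and 22 did not pass in either direction. Of all genes, 0.743% rose and 1.44% fell in the same fit, beside 61.4% and 0% of the histone genes. Histone genes made up 24.1% of the 145 genes that rose. At an unadjusted p of 0.05, 0 of 57 were lower as well, beside 1374 of all 19503 genes. The changes were moderate, from 0.30 to 0.91 on the log2 scale among the 35, or 1.23-fold to 1.88-fold, and 0 members passed 2-fold. The median over all 57 was 0.49, beside 0.00 over all genes and -0.02 over the fifth of genes with the strongest signal. Each of the 35 was higher under HFD in 24 to 29 of the 32 strains. A fit with strain as a replicate block compares the arrays within each strain, and in it 40 members rose and 0 fell, beside 1.39% and 2.13% of all genes. The 5 that it added were H3c15, H3c14, H2bc13, H3c7 and H1f3.

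**Figure D1:**
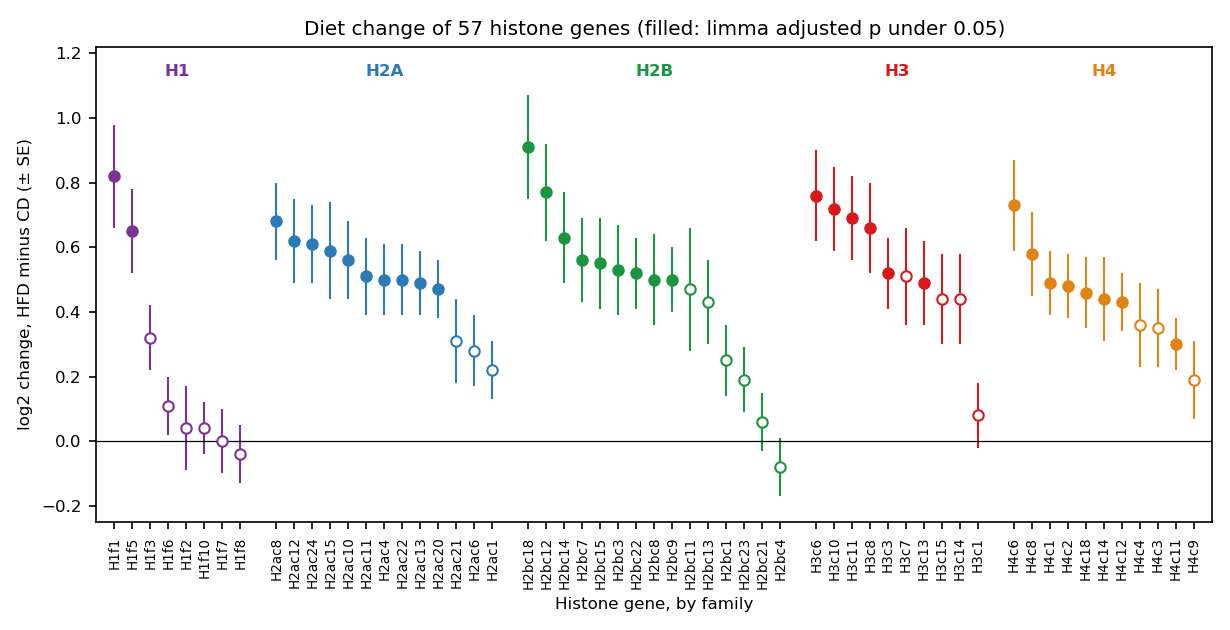
Log2 change (HFD minus CD, ± SE from limma, 32 arrays per diet) of each of the 57 histone genes, grouped by family and ordered by size, with filled points for those past an adjusted p of 0.05. The H2A, H2B, H3 and H4 families hold filled points over most of their range, while only H1f1 and H1f5 are filled among the H1 genes.

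Members of every family rose. Of 13 H2A genes 10 rose (median change 0.50), of 15 H2B genes 9 rose (0.50), of 10 H3 genes 6 rose (0.52) and of 11 H4 genes 8 rose (0.44). Of 8 H1 genes 2 rose, with a median of 0.08. No test between families was made. Without the strains in doubt 42 of 57 rose (1.69% of all genes did), without the arrays that stand apart 39 (0.779%), and without the Defa24-rich arrays 36 (0.805%), and the H1 count was 3, 2 and 2 in these fits.

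Among the H2B genes, which encode a core histone that pairs with H2A, H2bc18 changed most of all 57. Its values were 9.66, 11.42 and 12.34 under CD (lowest, median and highest of 32 arrays) and 11.03, 12.29 and 14.11 under HFD. The ranges overlap, but 15 HFD arrays lay above the highest CD array and 10 CD arrays below the lowest HFD array. The mean rose from 11.32 ± 0.59 to 12.23 ± 0.75 (SD, n = 32), a change of 0.91 (SE 0.16, limma adjusted p = 0.000495) that was seen in 29 of 32 strains. H2bc12 followed, from a median of 10.77 under CD (9.67 to 11.97) to 11.63 under HFD (10.29 to 12.87), a change of 0.77 (SE 0.15, limma adjusted p = 0.000857). The other H2B genes that rose (H2bc14, H2bc7, H2bc15, H2bc3, H2bc22, H2bc8 and H2bc9) changed by 0.50 to 0.63. H2bc11 had a change of 0.47 but a wide spread, with an SD of 0.69 under CD and 0.89 under HFD, and did not pass (SE 0.19, limma adjusted p = 0.223).

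The H2A gene with the smallest p was H2ac8. Its CD values were 11.05, 12.05 and 12.88 (lowest, median and highest), and its HFD values 11.19, 12.76 and 13.97. 12 HFD arrays exceeded every CD array, and 28 exceeded the CD median. The change was 0.68 (SE 0.12, limma adjusted p = 0.000559), with HFD higher in 26 of 32 strains. The strongest signal of the family was that of H2ac22, which went from 15.72 ± 0.40 to 16.23 ± 0.45 (SD, n = 32) and rose by 0.50 (SE 0.11, limma adjusted p = 0.00222). The 10 H2A genes above the median signal of the histone genes all rose, by 0.47 to 0.68. The other 3, H2ac21 (0.31), H2ac6 (0.28) and H2ac1 (0.22), did not pass.

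H3 genes encode the core histone that carries many of the well known tail modifications. H3c10 had the smallest p among them, with CD values of 11.88, 13.3 and 14.03 and HFD values of 12.7, 14.09 and 15.24 (lowest, median and highest). 19 of 32 HFD arrays lay above the highest CD array, the largest such number among the 5 members with the smallest p of their families. The change was 0.72 (SE 0.13, limma adjusted p = 0.000559). H3c6 rose by 0.76, H3c11 by 0.69, H3c8 by 0.66, H3c3 by 0.52 and H3c13 by 0.49. H3c14 and H3c15, which hold the same value on all 64 arrays and so count as 1 measurement, changed by 0.44 and did not pass (adjusted p = 0.0776), but passed with the block (0.0493), with quantile normalisation (0.035), without the strains in doubt (0.0344) and without the arrays that stand apart (0.0278). H3c13, their neighbour on chromosome 3, followed them with a correlation of 0.98.

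All clustered H4 genes encode the same protein. H4c6 had values of 10.09, 11.23 and 12.37 under CD and 10.63, 12.14 and 13.22 under HFD (lowest, median and highest). Here 8 HFD arrays lay above every CD array. The change was 0.73 (SE 0.14, limma adjusted p = 0.00118), seen in 25 of 32 strains. H4c8, H4c1, H4c2, H4c18, H4c14, H4c12 and H4c11 rose by 0.30 to 0.58. H4c4 (0.36), H4c3 (0.35) and H4c9 (0.19) did not pass. The calls of H4c14, H4c11 and H2bc8 were the least firm of the 35, since each lies close to the threshold and was lost when 1 of many single strains was left out (in 19, 15 and 18 of 32 cases).

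**Figure D2:**
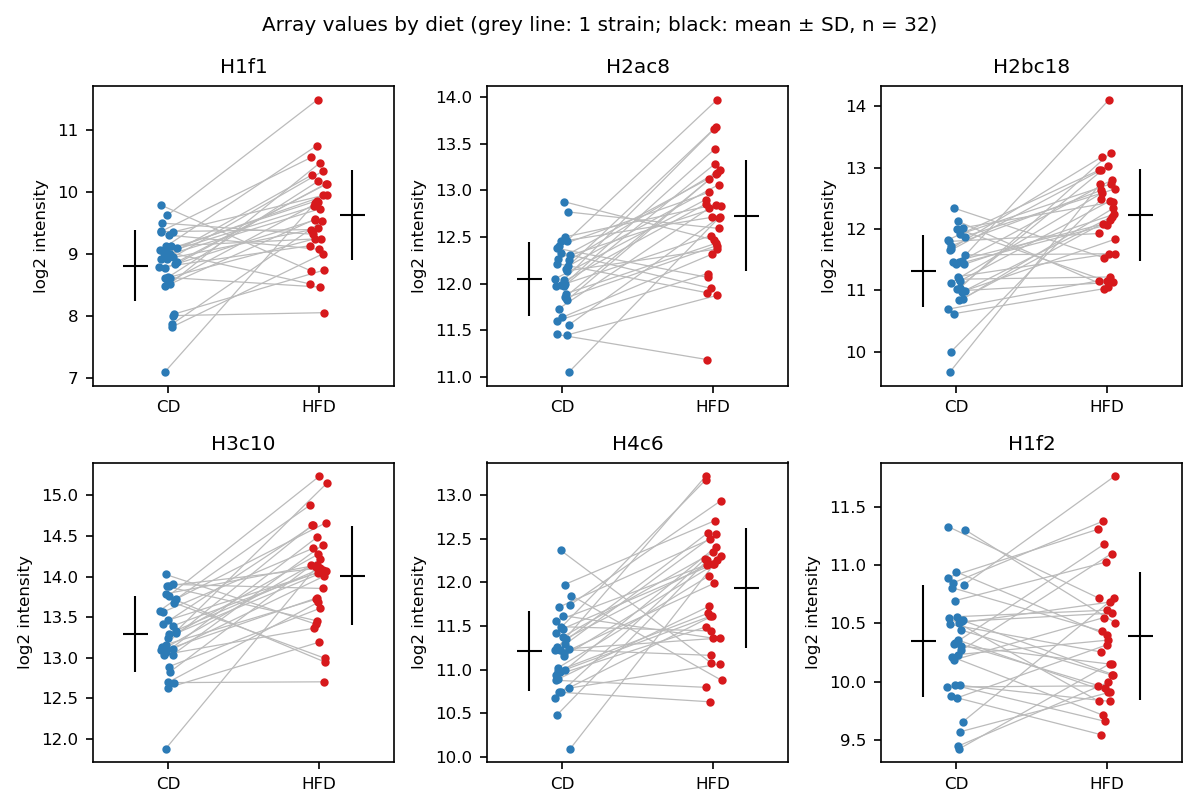
Log2 intensity (vertical axis) of 6 histone genes on each of the 64 arrays by diet, with a grey line joining the CD and HFD array of a strain and black bars for the mean ± SD (n = 32). The first 5 are the members with the smallest p of their families, where most lines climb and the diets still overlap. The lines of H1f2 run both ways.

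Of the linker histone genes, H1f1 and H1f5 rose, and the median change of the 8 was above 0 in 25 of 32 strains (26 for the H2A and for the H3 genes). H1f1, a linker histone made in few tissues, had CD values of 7.09, 8.92 and 9.79 and HFD values of 8.05, 9.65 and 11.49 (lowest, median and highest), and rose by 0.82 (SE 0.16, limma adjusted p = 0.00111) in 27 of 32 strains. H1f5, one of the widely expressed replication-dependent subtypes, rose by 0.65 (SE 0.13, limma adjusted p = 0.00184), and 15 of its HFD arrays lay above every CD array. H1f3, another of these, changed by 0.32 and did not pass (limma adjusted p = 0.0687), but passed with the block (0.0403), with quantile normalisation (0.0401), among the upper 60% of genes (0.0434), in the 30 BXD strains (0.0279) and without the strains in doubt (0.023). H1f2, the H1 gene with the strongest signal here, stood at 10.35 ± 0.48 under CD and 10.39 ± 0.55 under HFD (SD, n = 32), a change of 0.04 (SE 0.13, limma adjusted p = 0.922), with HFD higher in 17 of 32 strains. The remaining linker genes are the germ cell genes H1f6 and H1f7 (testis) and H1f8 (oocyte) and H1f10, which is not tied to replication. Their changes were 0.11, 0.00, -0.04 and 0.04 respectively, and their mean signals of 4.45 to 5.53 lay below the median gene on the array.

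The members were also split by signal. Members with a mean above the median of all genes (6.68) were taken as strong and the rest as weak. Signal depends on the probes of each gene, so these are classes of array signal and not of transcript number. Of 51 strong members 35 rose (median change 0.50), and of 6 weak members 0 rose (median 0.06, with 1 of 6 at an unadjusted p of 0.05). The weak members were H1f10, H1f8, H1f6, H1f7, H3c1 and H2bc1. H2bc21 lay just above the limit, with a mean of 6.69, and H1f6 and H2bc1 below it with 5.53 and 6.01. With the limit moved to the median of the histone genes (11.15), 23 of 28 strong and 12 of 29 weak members rose. Signal class and family overlap, since all 8 H1 genes were weak at this limit and 2 of them rose. Among strong and weak members, 10 of 10 and 0 of 3 H2A genes rose, and 2 of 3 and 7 of 12 H2B genes. For H3 these counts were 4 of 6 and 2 of 4, and for H4 7 of 9 and 1 of 2. Among all genes of strong signal 129 of 9751 rose, the 35 strong members included, and among those of weak signal 16 of 9752. Both shares were low, but over the whole array weak genes also rose less often than strong ones.

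Not all strong members responded. H2bc4 had the strongest signal of the H2B family. It stood at 13.99, 14.48 and 15.35 under CD and at 13.97, 14.34 and 15.35 under HFD (lowest, median and highest), with 0 HFD arrays above the CD range. Its change was -0.08 (SE 0.09, limma adjusted p = 0.775), with HFD higher in 13 of 32 strains. H2bc4, H2bc21, H2ac6 and H1f2 are known from cultured mouse or human cells to give polyadenylated messages as well as stem-loop messages. Grouped for that reason after their values were seen, 0 of these 4 rose, their changes were -0.08, 0.06, 0.28 and 0.04, and 1 of 4 passed an unadjusted p of 0.05. No full list of genes with polyadenylated histone messages was used, so the 4 do not speak for such genes as a class. H2ax, outside the members, also gives both forms of message and rose by 0.61. Without the strains in doubt H2ac6 passed, with a change of 0.43 (SE 0.11, limma adjusted p = 0.00848). The testis-enriched pair H2bc1 and H2ac1 did not pass either, with changes of 0.25 and 0.22 and adjusted p of 0.285 and 0.226.

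The response was spread over the gene clusters. On chromosome 3, 4 of 8 members rose, all within the block from H2ac21 to H2bc18. On chromosome 13 the block from H2bc13 to H2ac24 held 13 that rose of 15, the block from H2ac12 to H2bc11 3 of 5, the block from H4c8 to H4c4 9 of 12 and the block from H2ac6 to H1f1 6 of 12. H2bc1 and H2ac1 form a block of their own, and the members on chromosomes 6 and 15 (H1f10, H1f8 and H1f7) stand alone. Among the 52 members whose strand was given, in 7 places an H2A and an H2B gene point away from each other with starts 164 to 281 bases apart. Both genes rose in 4 of these pairs (H2ac12 with H2bc12, H2ac15 with H2bc15, H2ac22 with H2bc22 and H2ac8 with H2bc8), 1 of both in 2 pairs and neither in H2bc1 with H2ac1. In 2 further places an H2A gene starts beside an H2B gene whose strand was not known here, across gaps of 192 and 240 bases. There H2ac20 rose while H2bc21 did not pass, and neither H2ac6 nor H2bc4 passed. The octamer printed above for H2bc12 lies in the 178 bases that it shares with H2ac12, which changed by 0.62 beside 0.77.

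The shift of the histone genes differed from strain to strain. Each strain holds 1 array per diet, so a difference between strains cannot be told from a difference between single arrays or pools. The median change over the 57 members was above 0 in 27 of 32 strains. It was lowest in BXD81 (-0.80), BXD89 (-0.63), DBA/2J (-0.36), BXD40 (-0.18) and BXD48a (-0.05), and highest in BXD62 (1.50), BXD34 (1.23) and BXD8 (1.20), with a median over strains of 0.55. The median change of all genes within a strain lay between -0.03 and 0.04 throughout. Without the 5 strains in doubt, 24 of 27 strains were above 0, and without both strains that hold an array standing apart, 26 of 30. In BXD81 the CD array had the highest mean of the 35 members that rose among the CD arrays (12.63, against a median of 11.92 and a lowest value of 10.95 in BXD62). Under HFD this mean ran from 11.52 in BXD87 over a median of 12.52 to 13.71 in BXD34. The same array often set the extreme. BXD34 was the highest HFD array for 29 of the 35 members, and BXD62 the lowest CD array for 23.

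**Figure D3:**
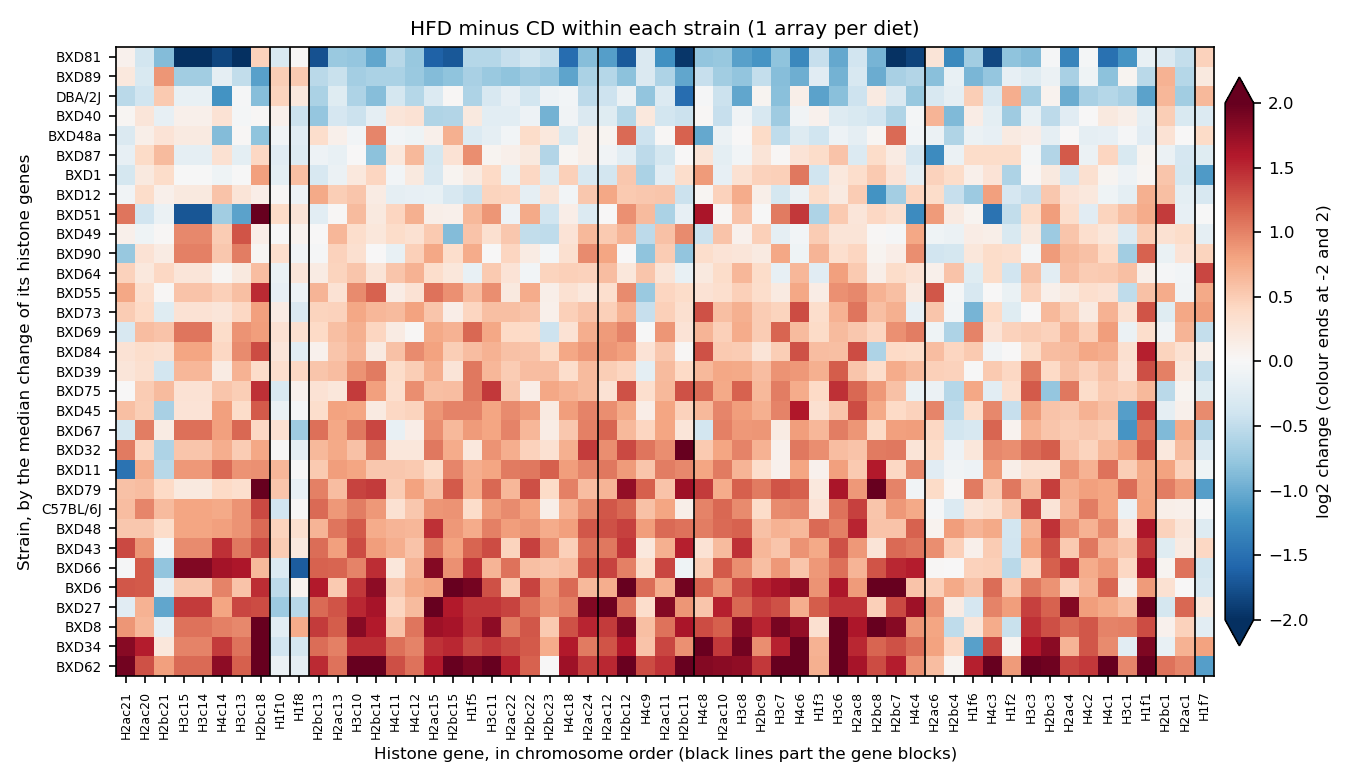
Change within each strain (rows, ordered by the median change of the strain) of each histone gene (columns, in chromosome order, blocks parted by black lines), coloured by HFD minus CD in log2 units with the colour ending at -2 and 2. Most rows are red across the chromosome 3 and chromosome 13 blocks, BXD81 and BXD89 are mostly blue, and the columns of H1f10, H1f8, H1f2, H2bc4 and H1f7 show no common colour.

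The spread over strains differed between diets in many members. Of the 35 members that rose, 32 had a larger SD on the HFD than on the CD arrays, and of all 57 members 44 did, beside 49.5% of all genes. The median SD of the members was 0.45 under CD and 0.51 under HFD, against 0.39 under both diets over all genes. This difference in spread was not tested. The members vary together, so these counts are not counts of separate measurements, and single arrays weigh on many SDs. Of the 35 members, BXD34 was the highest HFD array for 29 and BXD87 the lowest for 18, while BXD62 was the lowest CD array for 23.

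Whether strains keep their histone levels from diet to diet was asked with an F test of strain, with diet in the model. Only H1f2 passed among the 57 (F = 2.97, limma adjusted p = 0.0194), which is 1.75% of the members beside 6.38% of all genes. At an unadjusted p of 0.05, 6 of 57 members and 4563 of 19503 genes passed. The study's methods drop probes over regions that differ among BXD strains, but it is not known here if that was done before deposit, and the part of such probes in the call of H1f2 was not tested. The median F was 1.33 for the members and 1.30 for all genes, and the members that rose had F values of 0.73 to 2.08. H1f2 was low under both diets in C57BL/6J (9.44 under CD and 9.99 under HFD) and BXD90 (9.57 and 9.91), both strains whose pairing is in doubt. Outside the strains in doubt, it was low under both in BXD12 (9.88 and 9.55) and BXD49 (9.97 and 9.66). It was high under both in BXD6 (10.85 and 11.38), BXD39 (10.89 and 11.31) and BXD32 (10.83 and 11.76). Over the 32 strains its CD and HFD values correlated with r = 0.49, given as a description, and the median r of the members was 0.11. Without the strains in doubt H1f2 no longer passed (F = 2.70, adjusted p = 0.0516), nor without the strains with a Defa24-rich array (F = 2.69, adjusted p = 0.0578). Then 0 of 57 members passed in limma, and 10 and 7 at an unadjusted p of 0.05. Counts over all genes in these fits are not given here, so the 10 and 7 stand without a background. Leaving out 1 strain at a time lost the call in 0 of 32 cases (F = 2.75 to 3.30). When BXD51 was left out, H2bc1 passed beside H1f2.

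Histone genes varied together from array to array. After the mean of each diet was removed, the median correlation over all 1596 pairs of members on 64 arrays was 0.55, beside 0.00 over all pairs of genes. It was 0.80 within the H2A family, 0.63 within H2B, 0.61 within H3, 0.63 within H4 and 0.04 within H1, and 0.53 between families. Pairs of members that rose had a median of 0.70, a number that shares its arrays with the diet test. Sequences of these genes are close to one another, so probes of 1 gene can take up the message of another, and 30 pairs correlated above 0.9 (H3c14 with H3c15, H2ac24 with H2ac12 and H3c10 with H3c11 among them). Values of single genes within a family are therefore uncertain, and the 35 calls are not 35 separate measurements. Although H2ac1 did not pass the diet test, it correlated with H2ac13 at 0.80, while its divergent partner H2bc1 had a median correlation of 0.10 with the other members.

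**Figure D4:**
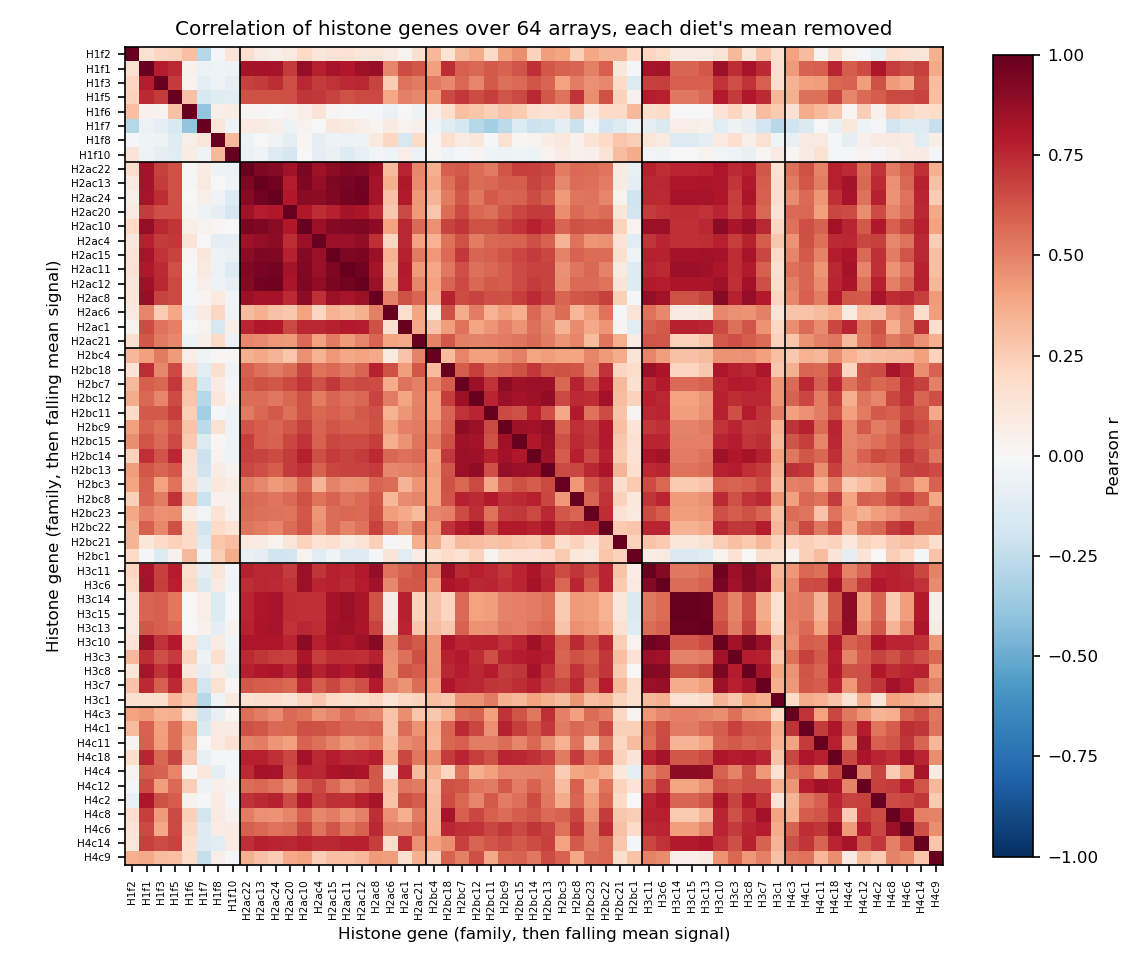
Pearson correlation of each pair of the 57 histone genes over 64 arrays after the mean of each diet was removed, with genes ordered by family and then by falling mean signal, and black lines between families. The H2A square is the most uniformly red (median r of 0.80), and H1f2, H1f6, H1f7, H1f8 and H1f10 form pale bands across all families.

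Outside the members, the gene most like the mean of the 35 was Hmgb2, a chromatin protein of dividing cells (r = 0.72 within diet over 64 arrays). Next came the ribosomal protein gene Rps16 (0.66), H4bc24 (0.65), the H2A variant gene H2ax (0.63), Rps14, Hint1 and Sumo3 (0.62 each), and Rpl22, Nsmce1 and the H2A variant gene H2az1 (0.60 each). These 10 genes were named after their values were seen. H2ax, whose message occurs both in the stem-loop and in the polyadenylated form, rose by 0.61 (SE 0.12, limma adjusted p = 0.00169). Of 9 variant genes with other symbols 3 rose: H2ax, H2az1 (0.33) and Macroh2a1 (0.23). H3f3a and H3f3b, which encode the replacement histone H3.3, changed by 0.09 and -0.06 and did not pass, and neither did the centromere histone Cenpa (0.29) or H2az2 (0.27).

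Genes that make and process the histone message were examined next. Of 13 genes for histone transcription and message processing 0 rose and 0 fell (median -0.02), with 1 lower at an unadjusted p of 0.05. Slbp, whose product binds the stem-loop, stood at 10.25 under both diets, and Npat, the coactivator of histone genes, changed by -0.11. Lsm10, part of the U7 particle that cuts the message, changed by -0.30 and fell with the block (adjusted p = 0.13 without it and 0.0436 with it). Among 20 histone chaperones 2 rose, Nap1l1 (0.34) and Nap1l4 (0.26), both carriers of H2A and H2B.

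Some genes of S phase and mitosis rose as well. Of 38 DNA replication genes 3 rose (Rrm1 0.41, Rrm2 0.37 and Gins2 0.34) and 0 fell, with a median of 0.18 and 16 higher at an unadjusted p of 0.05. Pcna, the sliding clamp of DNA polymerase, changed by 0.17 and did not pass. Of 24 mitosis genes 12 rose, Top2a (0.55), Plk1 (0.48) and Mki67 (0.43) among them, with a median of 0.37. No test compared these lists with the histone genes. All were chosen with earlier results of the same arrays known.

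The histone genes were set against the mean z score of the DNA replication list over the arrays, with diet in the model. The slope passed for 21 of 57 members, all positive, beside 1.05% of all genes (36.8% of members). By family it passed for 10 of 13 H2A, 3 of 15 H2B, 4 of 10 H3, 1 of 11 H4 and 3 of 8 H1 genes. The H2A genes correlated closely with one another, so their 10 calls are not 10 separate measurements. H2bc14 had the steepest slope (0.36 log2 units per SD of the score, SE 0.07, limma adjusted p = 0.00164), followed by H2bc11 (0.35), H1f1 (0.34), H3c8 and H3c10 (0.32 each). The lowest slopes were those of H1f2 (-0.10), H2bc1 (-0.09), H1f10 (-0.08), H2bc21 (-0.05) and H1f6 (-0.04), and none of these 5 passed. With the mitosis list in its place, 26 of 57 passed (0.539% of all genes).

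Within each diet this relation no longer passed the adjusted threshold. Within the CD arrays and within the HFD arrays 0 of 57 members passed in limma (0.0308% and 0.0154% of all genes did). At an unadjusted p of 0.05, 23 and 38 members had a positive slope, beside 986 and 940 of 19465 genes. The median slopes of the members were 0.13 and 0.23. In the fit with the strain block 0 of 57 passed, and 0 of all genes. There 33 members had a positive slope at an unadjusted p of 0.05, beside 983 of 19465 genes, and the median slope was 0.22. Single strains moved the count of members from 7 (without BXD87) over 12 (without BXD8 or without DBA/2J) to 31 (without BXD81). Without all strains in doubt 4 members passed. Counts over all genes in these reduced fits are not given here. The CD array of BXD81 had a mean z score of 0.76 for the histone genes that rose and of -0.90 for the replication list. As a description over 32 arrays, the mean of the histone genes that rose correlated with that of the replication list at 0.45 under CD and 0.50 under HFD, and with that of the mitosis list at 0.50 and 0.61.

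**Figure D5:**
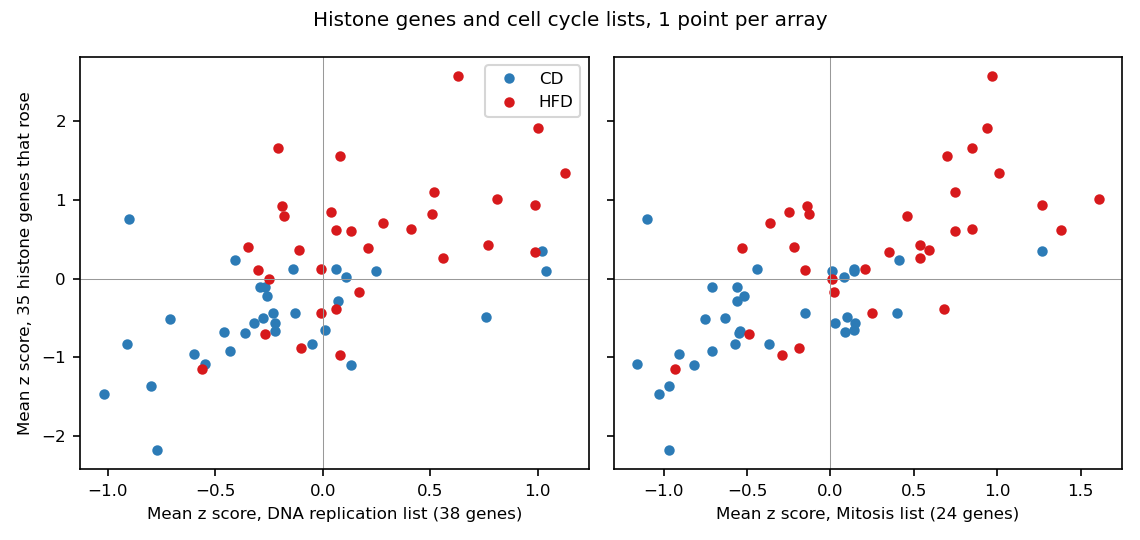
Mean z score of the 35 histone genes that rose (vertical axis) against that of the DNA replication list (left, 38 genes) and of the mitosis list (right, 24 genes), with 1 point per array and colours for diet. HFD arrays lie higher, and the CD array at 0.76 on the vertical axis with a replication score of -0.90 is that of BXD81.

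When the replication score was added to the model of diet, an alternative chosen after the data were seen, 7 of 57 members still rose (0.246% of all genes) and the median change of the members was 0.33. These were H2bc18 (0.68), H4c6 (0.62), H2bc12 (0.55), H3c6 (0.52), H2ac8 (0.48), H3c10 (0.46) and H4c1 (0.44). H1f1 had 0.53 in this fit and did not pass (adjusted p = 0.0704). Diet and score vary together, so this fit does not part them.

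Markers of other cells were set beside the histone genes. Of 12 small intestine markers 1 rose (Fabp6, by 2.32) and 5 were higher at an unadjusted p of 0.05, with a median change of 0.56, 10 of 12 positive and 4 that rose with the block. Of 10 colon epithelium markers 1 fell (Cyp2c55, by 1.00 on the log2 scale) and 3 were lower at an unadjusted p of 0.05, with a median of -0.16 and 2 that fell with the block. For the small intestine markers the correlation with the mean of the 35 over the arrays was 0.18 under CD and 0.01 under HFD, and for the colon epithelium markers -0.25 and -0.22. For stem cell markers of the crypt base (0 of 5 changed, 0 at an unadjusted p of 0.05) it was 0.57 and -0.12, for B and plasma cell markers -0.04 and 0.08, for T cell markers -0.16 and 0.37, for myeloid markers 0.21 and -0.23, and for smooth muscle markers 0.12 and -0.10. None of the 9 B and plasma cell, 7 T cell, 6 myeloid and 7 smooth muscle markers passed in limma, with 4, 1, 1 and 2 of them at an unadjusted p of 0.05. Their mean levels overlapped between diets, for B and plasma cells from 6.4 to 7.9 under CD and from 6.37 to 8.43 under HFD. The part of cell composition in the diet change was not tested.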

How the data were processed

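The deposited values are log2 intensities of Clariom S arrays that the authors made with Affymetrix Power Tools by a robust multi-array method with GC correction, and they were used as they stand. The genome build of that step is not given in the sources used here. Of 22199 probesets, 2629 without a gene symbol were left out. The median over probesets of a gene gave 19503 genes, with no filter on low values. Near-identical histone genes share sequence, which the array cannot part.

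The diet fit (HFD minus CD) used lmFit and eBayes of limma 3.58.1 under R 4.3.3, two-sided, with diet as the only term and p-values adjusted by Benjamini-Hochberg across all 19503 genes. Strain was tested by an F test with diet in the model, and the replication slope on the mean z score of a list, whose own genes were left out. The fits were tested on simulated data. The CD and HFD arrays of an inbred strain are its 2 values. Over all genes, their deviations from the diet mean correlated above 0.1 in 22 of 32 strains (median 0.21, against -0.01 between strains). Over the members alone this held in 18 of 32 strains (median 0.16, against -0.01). The members and lists were chosen with earlier results of these data known. Genes named were members that passed with or without the block, in each family those with the smallest diet p, largest strain F and strongest signal, all linker histone genes, the 5 highest and 5 lowest slopes, and list genes. Others are said to be chosen after their values were seen. The number of arrays (32 per diet) limits the precision. Alternatives were the block, centring, quantile normalisation, the upper 60% of genes, other probeset summaries, a variance trend, and sets of strains or arrays left out. Tables used pandas 2.3.3 and numpy 2.4.6 under Python 3.11.15, and figures matplotlib 3.10.9. Promoters came from RefSeq (GRCm38.p6).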

Additional observations from a re-analysis of the deposited data

How the results depend on the processing

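The number of histone genes that rose (35 of 57) was 40 with strain as a replicate block, 32 with arrays centred on their median, 40 with quantile normalisation, 38 of 51 among the upper 60% of genes, 37 in the 30 BXD strains, 42 without the strains in doubt, 39 without the arrays that stand apart, 36 without the Defa24-rich arrays, and 35 with the mean over probesets, probesets singly or a variance trend. It ran from 31 (without BXD34 or BXD62) to 40 (without BXD81 or BXD89) when 1 strain was left out, and 0 fell in any of these fits. Centring lost H4c14, H4c11 and H2bc8 (adjusted p = 0.0501, 0.0505 and 0.0519), and leaving out the Defa24-rich arrays lost H4c11. With the replication score in the model, added after the data were seen, 7 rose. The 1 member with a strain F past the threshold became 0 without the strains in doubt and 0 without the strains with Defa24-rich arrays, and 1 to 2 when 1 strain was left out. The 21 members with a slope on the replication list became 0 with the replicate block, 0 within CD, 0 within HFD, 9 with quantile normalisation, 4 without the strains in doubt and 7 to 31 when 1 strain was left out. The strong and weak members that rose became 23 and 12 with the limit at the median of the histone genes.

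Directions turned only where a change was close to 0. Without the strains in doubt the diet change was -0.04 for H2bc21 and -0.01 for H1f2. The slope of H2bc21 on the replication list was 0.01 in the 30 BXD strains, 0.00 without the strains in doubt and 0.02 within HFD. Leaving out 1 strain gave H1f7 a diet change of -0.05 to 0.03 and H1f8 one of -0.07 to 0.01. The cause was not tested. In the diet fit the block added 5 calls and lost none. Below a mean of 6.68, where 6 members lie, low signal limits what can be said of a change.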
